A study of Mus musculus with 2 samples.

Results

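Uracil and mismatch repair act on the U:G mismatches that activation-induced cytidine deaminase (AID) leaves in the immunoglobulin genes of B cells, and 7 genes of these pathways are described here in CH12.LX. This immortalized cell line was derived from a mouse B-cell lymphoma. They are Ung, Smug1, Apex1, Apex2, Msh6, Pms2 and Exo1. The 7 members were chosen by symbol out of 43346 Ensembl gene entries. They were taken from the pathways and not by a rule on measured values, but with earlier results of these data known. Each symbol was matched to its Ensembl identifier with the version ignored, and all 7 were found in the gene and the transcript tables of both libraries. The gene encoding AID itself was not analysed here. Polyadenylated RNA was sequenced single-end in 2 libraries, which the labels call biological replicates 1 and 2 and trace to separate biosamples. Both form 1 group, since the labels give no treatment, time or second genotype, and no stimulation to switch antibody class is named. The labels name B10.H-2aH-4bp/Wts as the strain, female as the sex and an unknown age. Values from this single tumour line describe that line and not B cells in general.

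In an activated B cell, uracil-DNA glycosylase can remove the uracil, and an apurinic/apyrimidinic (AP) endonuclease can then nick the strand at the emptied site. Alternatively, the mismatch is bound by a MutS dimer, a MutL dimer nicks nearby, and an exonuclease digests the strand so that it must be filled in again. The same enzymes repair ordinary damage and replication errors in every dividing cell. In B cells their products are also used to produce mutations in variable regions and the breaks of class switch recombination, for which sublines related to CH12.LX are a common culture model.

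Read depth was 22986749 expected counts in replicate 1 and 25701557 in replicate 2 over the Ensembl entries. The label of a B cell line was checked with markers: all 8 of 8 B cell genes were at 1 TPM (the usual length-corrected measure of a gene's share of the transcripts in a library) or more in both libraries, at a summed 7149 and 7126 TPM. T cell markers reached that level for 2 of 6 genes, at a summed 3.89 and 5.34 TPM with Bcl11b at 0, and myeloid markers for 2 of 5 genes, at 4.13 and 3.33 TPM with Cd14 at 0. Erythroid markers were detected for 1 of 3 genes, at 5.72 and 5.23 TPM, and stromal markers for 0 of 3, at 0.51 and 0.55 TPM. Most of the B cell sum came from Cd74, at 5682 and 5560 TPM. The lowest B cell marker was Pax5, at 27.5 and 36.3 TPM. The Y-linked genes Eif2s3y (63.65 and 50.51 TPM) and Ddx3y (29.05 and 25.37 TPM) were expressed and Xist had 1 and 0 counts, which goes against the label of a female in both libraries alike.

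All 7 genes were detected at 1 TPM or more in both libraries, as were 10317 of 21474 annotated protein-coding genes (48.0%). By TPM, the AP endonuclease gene Apex1 led at 274 ± 9.84 (mean ± SD, n = 2), followed by the exonuclease gene Exo1 at 106 ± 6.73, the glycosylase gene Ung at 65.7 ± 2.38 and the mismatch recognition gene Msh6 at 50.4 ± 1.48. The MutL gene Pms2 stood at 21.9 ± 3.07 TPM, the second AP endonuclease gene Apex2 at 11.6 ± 0.0141 and the second uracil glycosylase gene Smug1 at 4.14 ± 0.410. No neighbours in this order overlapped over the 2 libraries, so each step was larger than the spread between replicates. Their median was 50.4 TPM, beside 21.03 over the 10317 detected protein-coding genes. In bulk RNA a lower level can come from fewer expressing cells or from less RNA per cell, which cannot be told apart here.

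The places of Exo1, Pms2 and Apex2 in that order depend on the transcript lengths behind their TPM values. TPM divides a gene's counts by the mean length of the transcripts to which its reads were assigned in that library. When the counts were divided instead by the length of the transcript with the longest complete coding sequence, as reads per kilobase scaled to library depth (RPKM), Exo1 stood at 11.9 and 11.7 in replicates 1 and 2. On that scale it lay below Ung (44.3 and 46.9) and Msh6 (36.66 and 34.97), both of which it exceeds by TPM. Pms2 (7.72 and 7.26 RPKM) and Apex2 (7.45 and 7.74) then overlapped, while Apex1 (185.6 and 171.3) stayed first and Smug1 (3.15 and 2.73) stayed last. The mean length assigned to Exo1 was 1202 and 1307 bases in the 2 libraries, whereas its full coding transcript Exo1-201 has 7796. On the merged length of the exons of all measured transcripts, Apex1 again led, Msh6 and Ung overlapped, and Apex2 came last at 1.54 and 1.60 RPKM, where its merged exons add up to 8744 bases. The relations Apex1 above each other member, and Ung and Msh6 above Pms2, Apex2 and Smug1, were the same on all of these scales.

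**Figure D1:**
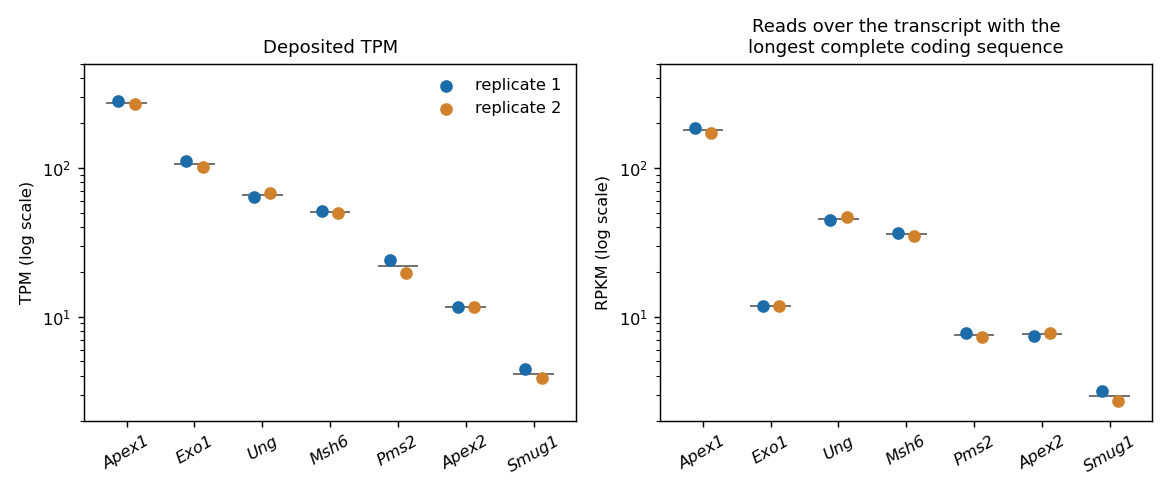
Level of each gene in replicate 1 (blue) and replicate 2 (orange) on log axes, with the mean as a line, as deposited TPM (left) and as RPKM over the transcript with the longest complete coding sequence (right). Exo1 is second on the left at 106 TPM and at 11.8 on the right, below Ung and Msh6.

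Of the 2 uracil glycosylase genes among the members, Ung was the higher. It encodes the uracil-DNA glycosylase that removes uracil from single- and double-stranded DNA. Ung (ENSMUSG00000029591.10, chr5:114130386-114139323, plus strand, GRCm38) had 1981 and 2347 counts and 64.0 and 67.4 TPM, placing it 2296th and 2079th among protein-coding genes. Smug1 (ENSMUSG00000036061.9, chr15:103153290-103167092, minus strand) encodes a second uracil glycosylase, which also takes oxidized pyrimidines. It had 235 and 227 counts and 4.43 and 3.85 TPM. With so few reads, the counting error of Smug1 was 6.52% and 6.64%, beside 2.25% and 2.06% for Ung. Ung exceeded Smug1 by 14.45 and 17.5 times in TPM, a ratio of 16.0 ± 2.16 (SD, n = 2). The ratio was 15.6 over the transcripts with the longest complete coding sequence and 12 over merged exons. The ranges of the 2 genes thus lay far apart on each scale. Only the length given to Ung changed between these scales, since Smug1 has a single measured transcript of 3281 bases.

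Ung makes a nuclear and a mitochondrial enzyme from separate first exons. Ung-201 begins at the upstream exon and encodes the nuclear form, and Ung-202 begins at the downstream exon and encodes the mitochondrial form. The coding bases that only the first of these transcripts has lie at chr5:114130503-114130625, and those that only the second has lie at chr5:114131229-114131318, both on the plus strand of GRCm38 and taken from the GENCODE M21 transcripts. They are shown because they set the 2 proteins apart, and the capitals mark the start codon.
Ung-201: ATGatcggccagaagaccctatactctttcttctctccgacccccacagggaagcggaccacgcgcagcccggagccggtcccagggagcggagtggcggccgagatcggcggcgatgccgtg
Ung-202: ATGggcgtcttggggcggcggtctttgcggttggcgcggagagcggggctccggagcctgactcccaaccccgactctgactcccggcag

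Ung-201 was the leading Ung transcript in both libraries, at 47.9 and 43.4 TPM or 74.8% and 64.4% of the gene. Ung-202 stood at 9.42 and 9.64 TPM, 14.7% and 14.3% of the gene. The ratio of the nuclear to the mitochondrial transcript was thus 5.08 in replicate 1 and 4.50 in replicate 2, and 4.94 and 4.71 from the deposited posterior means. Ung-203, a coding transcript whose first exon lies further downstream, was assigned 88.0 and 442.7 counts, which is 4.95% and 21.3% of the gene's TPM. Its posterior mean counts were 107.5 ± 57.6 and 443.3 ± 76.3 (mean ± posterior SD within a library), so the 2 libraries differed by more than these deposited uncertainties. Ung-205, annotated as a target of nonsense-mediated decay, had 5.48% of the TPM in replicate 1 and was listed at 0 in replicate 2. Each of these forms has stretches of its own: 241 distinct 41-mers of Ung-201 occur in no other Ung transcript, and 303 of Ung-202, 147 of Ung-203 and 40 of Ung-205 likewise. A run of 41 bases was used because every effective length in the files is 40 bases under the length, as reads of 41 bases would give.

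The AP endonucleases were far apart in level. Apex1 (ENSMUSG00000035960.9, chr14:50924968-50927139, plus strand) encodes the main mammalian AP endonuclease, which also acts as a redox regulator of transcription factors. It had 5115 and 5278 counts and 281 and 267 TPM, which placed it 442nd and 430th among protein-coding genes. Apex2 (ENSMUSG00000025269.12, chrX:150519519-150589868, minus strand) encodes a weaker AP endonuclease that binds the sliding clamp PCNA. It had 310 and 361 counts and 11.6 TPM in both libraries, at places 6782 and 6759. Its counting error was 5.68% and 5.27%, so its TPM SD of 0.0141 understates the uncertainty of its level. Apex1 exceeded Apex2 by 24.2 and 23.0 times in TPM, or 23.6 ± 0.818 (SD, n = 2), and by 23.5 times over the transcripts with the longest complete coding sequence. On the merged exons of the measured transcripts the ratio was 101.4 and 90.0, so its size depended on the length given to Apex2.

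Apex1 reads were divided differently between 2 similar transcripts in the 2 libraries. Apex1-201, which holds the complete coding sequence, took 86.7% of the gene's TPM in replicate 1 and 68.2% in replicate 2. Apex1-202, whose annotated coding sequence is incomplete, was listed at 0 in replicate 1 and at 21.9% in replicate 2, with 0 and 1063 counts. The posterior mean counts of Apex1-202 were 12.7 ± 14.8 and 1101 ± 116 (mean ± posterior SD), a difference well outside those deposited uncertainties. The transcripts differ inside their shared span by 69 exonic bases, a multiple of 3, through the choice of the acceptor of 1 intron. The junctions run from chr14:50926353 to 50926456 in the former and to 50926525 in the latter, with 24 bases on each side shown and the downstream exon in capitals.
Apex1-201: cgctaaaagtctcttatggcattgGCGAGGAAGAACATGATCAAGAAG
Apex1-202: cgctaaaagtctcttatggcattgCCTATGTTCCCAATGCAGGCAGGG

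Little sequence belongs to either form alone, with 38 distinguishing 41-mers in Apex1-201 and 39 in Apex1-202. Apex1-203 held 8.16% and 4.18% of the TPM and Apex1-204 held 5.11% and 5.73%, both with incomplete coding sequences. Apex1 also shares 877 exonic bases with Pip4p1 on the opposite strand, a phosphatidylinositol phosphatase gene at 24.7 and 26.3 TPM. Without regard to strand, 46.4% of the 41-mers of Apex1 occur in no other gene, against 98.3% when strand is respected. The sources used here do not say whether strand was used in counting, so reads of Apex1 and Pip4p1 over these bases cannot be told apart with certainty.

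For Apex2, the leading transcript was not the same in the 2 libraries. Apex2-204 led replicate 1 with 46.3% of the TPM and had 21.8% in replicate 2, where Apex2-201 had 26.7% after being listed at 0. By the deposited posterior means, Apex2-204 had 29.0% and 20.1% and Apex2-201 had 12.9% and 25.2%, on 106 ± 37.8 and 80.3 ± 44.6 counts for the former and 47.2 ± 37.1 and 103 ± 44.8 for the latter. By those means the leading form of replicate 1 was the noncoding Apex2-207, at 31.4%. The uncertainties of Apex2-204 and Apex2-201 are close in size to the differences between them, so the order of these forms was not resolved. Both encode a complete protein, and Apex2-204 has 21 more exonic bases inside the shared span, at an acceptor placed at chrX:150586066 in place of 150586045. The junction from chrX:150587043 is written on the minus strand of the gene, with the downstream exon in capitals.
Apex2-201: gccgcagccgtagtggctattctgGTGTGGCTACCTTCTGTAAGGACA
Apex2-204: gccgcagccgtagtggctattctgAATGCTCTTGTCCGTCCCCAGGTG

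Apex2-201 has 0 distinguishing 41-mers among the Apex2 transcripts and Apex2-204 has 39. The form with most sequence of its own, Apex2-203 with 2645 distinguishing 41-mers, was steadier, at 9.69% and 9.71% of the TPM. Apex2-207, a processed transcript of 363 bases without a coding sequence, held 31.4% and 23.7% of the TPM on 19.3 and 16.2 counts. A short transcript with few reads can thus take a large share of a gene's TPM. Apex2-209 was listed at 0 and at 8.51%, and Apex2-208 at 5.22% and 1.61%. Among 7684 detected protein-coding genes with at least 2 measured transcripts, the leading transcript differed between the libraries in 1241 (16.2%). Of the members with at least 2 (Ung, Apex1, Apex2, Pms2 and Exo1), it differed for Apex2 only.

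Msh6 (ENSMUSG00000005370.3, chr17:87975062-87990892, plus strand) encodes the subunit of the MutS alpha dimer that contacts the mismatched base. It had 3551 and 3787 counts and 51.4 and 49.3 TPM, at places 2783 and 2786. The deposited tables hold a single transcript for it, Msh6-201 of 4254 bases with 4074 coding bases, so its level does not hang on a division between forms. The same holds for Smug1 with Smug1-201, although GENCODE M21 lists further transcripts of both genes. Smug1-201 spans chr15:103153307-103158002, a part of the span given for the gene. Exons of Smug1 outside it have no measured level here.

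Pms2 (ENSMUSG00000079109.7, chr5:143909964-143933968, plus strand) encodes the MutL alpha subunit that nicks the strand to be removed. It had 966 and 1016 counts and 24.02 and 19.68 TPM. Msh6 exceeded Pms2 by 2.14 and 2.51 times in TPM, a ratio of 2.32 ± 0.259 (SD, n = 2), and by 4.78 times over the transcripts with the longest complete coding sequence. Msh6 was above Pms2 in both libraries on each scale, but the size of the step was scale-dependent. The leading Pms2 transcript by TPM in both libraries was Pms2-201, annotated as a processed transcript without a coding sequence, at 40.4% and 32.5%. By posterior means it had 35.2% and 28.9%, beside 31.6% and 17.8% for the complete coding Pms2-202, so its lead in replicate 1 was narrow. By counts, Pms2-209, the transcript with the longest coding sequence, was above it in replicate 2 (360.3 against 317.0) but not in replicate 1 (155.7 against 432.4). Within the shared span, Pms2-201 lacks 173 exonic bases that Pms2-209 has. In part this is because Pms2-201 joins chr5:143926073 directly to 143928942, skipping an exon. The junctions at that donor are shown with the downstream exon in capitals.
Pms2-209: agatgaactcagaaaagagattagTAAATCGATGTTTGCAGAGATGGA
Pms2-201: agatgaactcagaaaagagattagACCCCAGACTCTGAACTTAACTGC

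Pms2-202, a complete coding transcript that lacks 1194 exonic bases of Pms2-209, had 35.4% and 21.1% of the TPM. Pms2-209 itself had 7.27% and 18.5%, with posterior mean counts of 89.9 ± 46.1 and 261 ± 73.5 (mean ± posterior SD). It has 0 distinguishing 41-mers, so no read of that length belongs to it alone, beside 38 for Pms2-201 and 40 for Pms2-202. The retained-intron forms Pms2-204 (5.48% and 8.01%) and Pms2-207 (4.54% and 5.17%) made up part of the remainder. The deposited tables also place Gm42421-201 under Pms2, at 4.16% and 5.23%, which GENCODE M21 gives as a gene of its own. In sum, 42.7% and 39.5% of the Pms2 TPM lay on transcripts with a complete coding sequence, below the median of 84.3% and 85.9% over the 7684 genes with several transcripts.

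Exo1 (ENSMUSG00000039748.7, chr1:175880581-175913489, plus strand) encodes the exonuclease that resects the nicked strand in mismatch repair. It had 2114 and 2342 counts and 111 and 102 TPM, at places 1321 and 1365. Exo1-201, its only annotated transcript with a complete coding sequence, took 45.2% and 50.5% of the counts but 6.78% and 8.24% of the TPM, at 7.52 and 8.37 TPM. The remaining TPM was assigned to transcripts of 968 bases or fewer, each an incomplete coding, retained-intron or noncoding form. The leading form by TPM was Exo1-202, a fragment of 738 bases, at 24.4% and 31.7% on 310 and 409 counts. Exo1-208 (17.4% and 16.8%), Exo1-207 (17.9% and 16.2%), Exo1-204 (13.1% and 16.4%) and Exo1-206 (16.4% and 9.69%) followed.

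Exo1-202 differs from Exo1-201 inside their shared span by 45 exonic bases, a multiple of 3, which it lacks through an earlier donor. The junctions run from chr1:175893834 and from chr1:175893789 to the same acceptor at 175896128, again with the downstream exon in capitals.
Exo1-201: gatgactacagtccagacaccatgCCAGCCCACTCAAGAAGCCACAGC
Exo1-202: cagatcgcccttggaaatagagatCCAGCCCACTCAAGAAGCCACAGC

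Of the Exo1-201 sequence, 5666 distinct 41-mers occur in no other Exo1 transcript, whereas Exo1-202 has 40 and Exo1-206 has 0. By TPM, Msh6 stood at 0.463 and 0.486 of Exo1, but over the transcripts with the longest complete coding sequence it stood at 3.09 and 2.98 times Exo1. The direction of this ratio therefore turned with the length used, in both libraries. On both scales the counts are the same, and the length they are divided by is 1202 and 1307 bases for TPM and 7796 for RPKM. How many of those reads came from full-length Exo1 RNA was not tested.

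**Figure D2:**
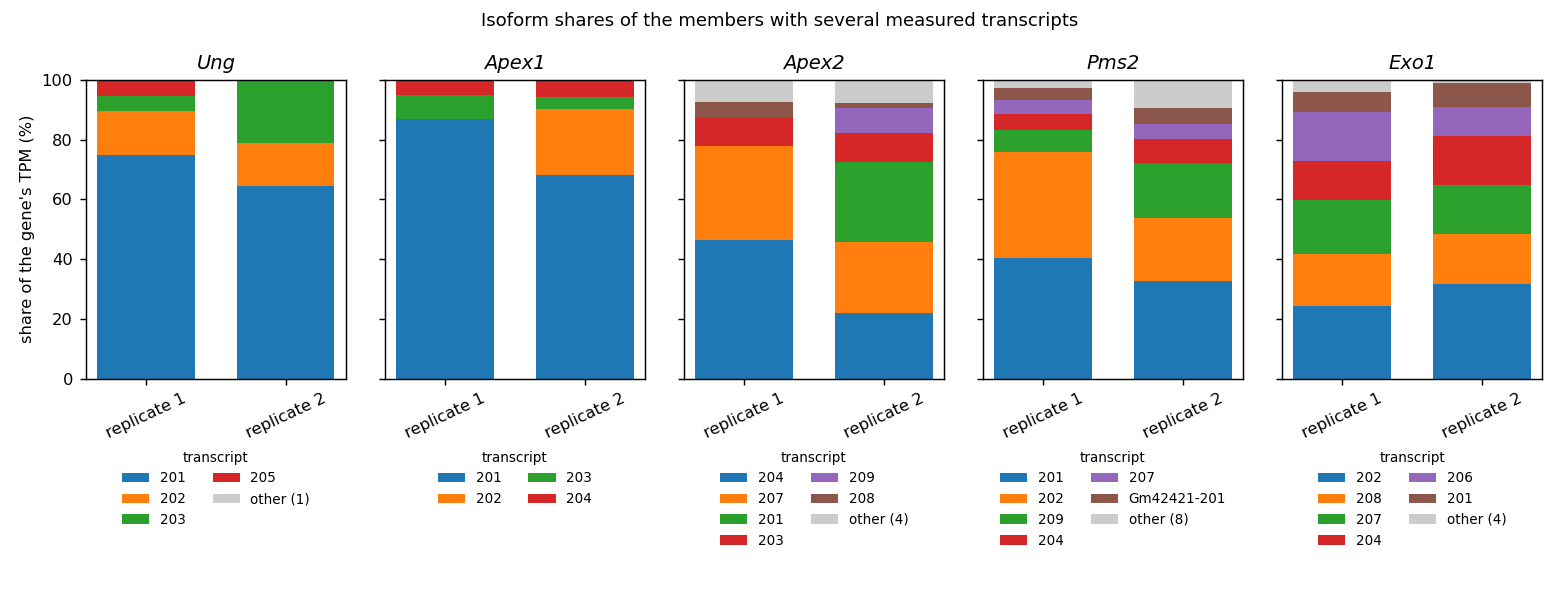
Share of the gene's TPM (in %) on each annotated transcript in replicates 1 and 2 for the 5 members with several measured transcripts. Colours are the transcripts at 5% or more in a library, and grey sums the others. Ung-201 (74.8% and 64.4%) and Apex1-201 (86.7% and 68.2%) led in both libraries, while the full coding Exo1-201 (brown) had 6.78% and 8.24%.

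The 7 members were then compared between the 2 libraries by an exact binomial test, two-sided, on counts scaled by edgeR's TMM sizes, with Benjamini-Hochberg adjustment over 15340 genes. This test compares the libraries and not conditions. It called 1 of the 7, Apex1, whereas it called 30.5% of all genes tested, 14.1% as higher and 16.4% as lower in replicate 2. The scaled counts of Apex1 were lower in replicate 2 by a log2 ratio of -0.10 (95% counting interval -0.15 to -0.04, exact binomial adjusted p = 0.00334). Ung had the next smallest value, a log2 ratio of 0.10 (0.02 to 0.19, exact binomial adjusted p = 0.0624). Msh6 (-0.05), Pms2 (-0.07), Exo1 (0.01), Apex2 (0.08) and Smug1 (-0.19, interval -0.46 to 0.08) had exact binomial adjusted p-values between 0.309 and 0.961. A negative binomial exact test in edgeR adds the spread between the libraries as a biological coefficient of variation of 8.84%. At an adjusted p under 0.05 it called 0 of 7 members, beside 4.95% of all genes. Among the 10317 detected protein-coding genes, to which the members belong, it called 91. At an unadjusted p under 0.05 it also gave 0 of 7 members. Its dispersion was estimated from the same 2 libraries, so differences as small as these can hardly be called. The 0 of 7 therefore does not show that the members were equal. A share of 1 in 7 is no larger than the share of all genes called.

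For Pms2 and Exo1, TPM differed more than counts did. From replicate 1 to replicate 2, Pms2 differed by -18.1% in TPM, by -4.66% in scaled counts and by 15.2% in the mean length assigned to it. Exo1 differed by -8.574% in TPM, by 0.427% in scaled counts and by 8.69% in mean length. Among the 7684 detected protein-coding genes with several transcripts, 24% changed their mean length by more than 10% between the libraries. For Msh6 and Smug1, which have 1 measured transcript each, TPM and scaled counts moved together: Msh6 by -4.06% and -3.33% and Smug1 by -13.1% and -12.4%.

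**Figure D3:**
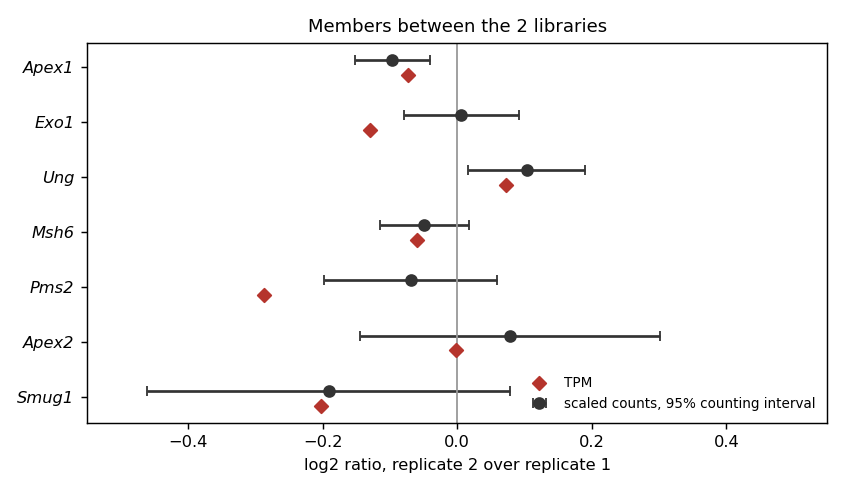
Log2 ratio of replicate 2 over replicate 1 for each member, from scaled counts with the 95% counting interval (circles) and from TPM (diamonds). The interval of Apex1 lies below 0 and that of Ung above it, and the TPM values of Pms2 and Exo1 fall below their count intervals.

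The positions of the genes put 3 of the 7 head to head with an expressed neighbour. Neighbours are here the nearest protein-coding genes on each side that do not overlap the member, so overlapping genes are not counted. Apex1 starts 75 bases from the oppositely oriented Osgep, a tRNA modification gene at 44.5 and 35.6 TPM, and Pms2 starts 117 bases from Aimp2, a scaffold gene of the aminoacyl-tRNA synthetase complex at 110.8 and 113.3 TPM. Ung starts 2168 bases from Alkbh2, which encodes a DNA alkylation repair enzyme, at 34.2 and 30.8 TPM. On their other sides lie Acacb beside Ung (13.2 and 12.1 TPM), Ccz1 beside Pms2 (64.0 and 63.5 TPM) and Pnp beside Apex1. No measured entry carried the GENCODE M21 identifier of Pnp, so it has no level here. Smug1 lies between Hoxc4 (28.7 and 23.3 TPM) and Cbx5 (116.9 and 94.9 TPM), and Apex2 between Tmem29 (29.6 and 33.2 TPM) and Tro (0.03 in both). Msh6 has Rpl36-ps4 (0 in both) and Foxn2 (13.2 and 11.8 TPM) as neighbours, and Exo1 has Wdr64 (0 in both) and Gm38100 (0.14 and 0.09 TPM). Non-overlapping neighbours near 0 TPM thus lay beside Apex2, Msh6 and Exo1. Apex2 and Msh6 also share exonic bases with the expressed genes Pfkfb1 and Fbxo11. Exons of Msh6 share 34 bases with Fbxo11 on the opposite strand (52.3 and 45.0 TPM), and 94.2% of its 41-mers occur in no other gene, Gm11855 holding the rest. On the same strand those shares were 99.6% for Ung, 100% for Smug1, 99.6% for Apex2, 95.5% for Pms2 and 98.7% for Exo1. Apex2 exons share 96 bases with Pfkfb1 (11.6 and 9.14 TPM) and 311 with Alas2 (0.17 and 0.12 TPM) on the opposite strand, and without regard to strand its share was 95.55%.

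The 57 other genes of 6 related lists were read beside the members. Of these, 52 were detected, and 5 were higher and 15 lower in replicate 2 by the exact binomial test. That is 35.1% of the 57, although Apobec4, Neil1 and Neil2 had too few counts to be tested, beside 30.5% of all genes tested. Among the 10317 detected protein-coding genes, 1811 were called higher and 1763 lower. The negative binomial test called 0 of the 57, beside 91 of the 10317 detected protein-coding genes. At an unadjusted p under 0.05 it gave 0 of the 57 as well. The log2 ratios of the 20 called genes all lay between -0.5 and 0.5. The list medians below are over all genes of a list, detected or not. Over all 21474 protein-coding genes the median was 0.7675 TPM, and over the 10317 detected it was 21.03 TPM.

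Among the deaminases and enzymes that keep uracil out of DNA, 6 of 8 were detected, with a median of 91.0 TPM. Apobec3, a DNA deaminase directed at retroviruses, stood at 190.8 and 191.8 TPM. Dut, the dUTPase, stood at 174 ± 4.30 TPM (SD, n = 2), Dctpp1, which hydrolyses dCTP and its analogues, at 154 ± 12.6 and Tyms, which makes thymidylate, at 122 ± 14.1. Apobec1, an RNA-editing deaminase, was higher in replicate 2 (log2 ratio 0.29, exact binomial adjusted p = 0.000478), and Dctpp1 was lower (-0.16, exact binomial adjusted p = 0.00751). Apobec2 (0.21 and 0.61 TPM) and Apobec4 (0.04 and 0 TPM) were under 1 TPM.

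The other DNA glycosylases were lower in level, with 7 of 9 detected and a median of 9.45 TPM. Tdg, which removes thymine and uracil opposite guanine, led at 101.05 and 84.45 TPM, above Ung in both libraries by TPM. Mpg followed at 30.5 ± 2.16 TPM, Nthl1 at 16.1 ± 2.86 and Ogg1 at 15.1 ± 0.389 (SD, n = 2). Tdg and Nthl1 were the 2 called, both lower in replicate 2 (log2 ratio -0.15 and -0.35, exact binomial adjusted p = 4.12e-06 and 0.0142). Neil1 (0.12 and 0.10 TPM) and Neil2 (0.06 and 0.12 TPM) were under 1 TPM. Smug1, at 4.14 TPM, was below each of the 7 detected members of this list, of which Mbd4 was the lowest at 6.31 TPM.

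All 10 genes that complete base excision were detected, with a median of 60.6 TPM. Parp1, which senses strand breaks, stood at 248 ± 26.4 TPM, the DNA ligase gene Lig1 at 139 ± 26.2, the flap endonuclease gene Fen1 at 86.8 ± 7.72 and the scaffold gene Xrcc1 at 84.9 ± 11.3 (SD, n = 2). Of the 10, 4 were lower in replicate 2 and 0 higher: Parp1 (log2 ratio -0.24), Xrcc1 (-0.26), Fen1 (-0.18) and Parp2 (-0.17). Their exact binomial adjusted p-values were 4.29e-44, 2.12e-11, 5.09e-06 and 0.0087. Over all genes tested 16.4% were lower and 14.1% higher, and the negative binomial test in edgeR called 0 of the 10 (adjusted p = 0.874 for Parp1).

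The other MutS and MutL genes were expressed at low levels, with 4 of 5 detected and a median of 8.61 TPM. Msh3, the alternative MutS partner for larger loops, stood at 16.6 and 13.6 TPM, below Msh6 in both libraries. Pms1 stood at 12.4 ± 0.184 TPM, the meiotic gene Msh5 at 8.61 ± 1.08 and Mlh3 at 4.19 ± 0.438 (SD, n = 2). Msh4, which acts with Msh5 in meiosis, was at 0.26 and 0.11 TPM, and 0 of the 5 were called in either direction.

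Replication factors that serve mismatch repair were high, with 14 of 14 detected and a median of 83.4 TPM. Pcna, the sliding clamp, led at 430 and 405 TPM, followed by Hmgb1 at 187 ± 27.5, the single-strand binding gene Rpa1 at 180 ± 15.4 and the polymerase delta gene Pold2 at 162 ± 11.99 (SD, n = 2). Of the 14, 7 were lower in replicate 2 and 0 higher, among them Rfc4 of the clamp loader (log2 ratio -0.30), Pold2 (-0.17), Rpa1 (-0.14) and Pcna (-0.07). Their exact binomial adjusted p-values were 3.65e-06, 4.57e-06, 2.51e-09 and 0.00262. The share of all genes tested that was lower is again 16.4%, with 14.1% higher, and the negative binomial test in edgeR called 0 of the 14 (adjusted p = 0.775 for Rfc4).

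Error-prone polymerases and the enzymes of PCNA ubiquitination had a median of 17.8 TPM with 11 of 11 detected. The highest were Ube2b at 188 ± 20.2 TPM, Usp1 at 87.9 ± 4.84, Ube2a at 47.3 ± 5.76 and Mad2l2 at 29.1 ± 3.41 (SD, n = 2). Polymerase eta, encoded by Polh and known for mutations at A:T pairs after mismatch repair in B cells, stood at 16.9 and 18.6 TPM. The 4 called higher in replicate 2 were the ubiquitin-conjugating genes Ube2b (log2 ratio 0.25) and Ube2a (0.26), the ligase gene Rad18 (0.18) and the polymerase zeta gene Rev3l (0.21). Usp1, which removes ubiquitin from PCNA, was lower (-0.12). The exact binomial adjusted p-values of these 5 lay between 1.03e-10 and 0.00656. Beside these 4 of 11, 14.1% of all genes tested were higher, and the negative binomial test in edgeR called 0 of the 11 (adjusted p = 0.838 for Ube2a).

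**Figure D4:**
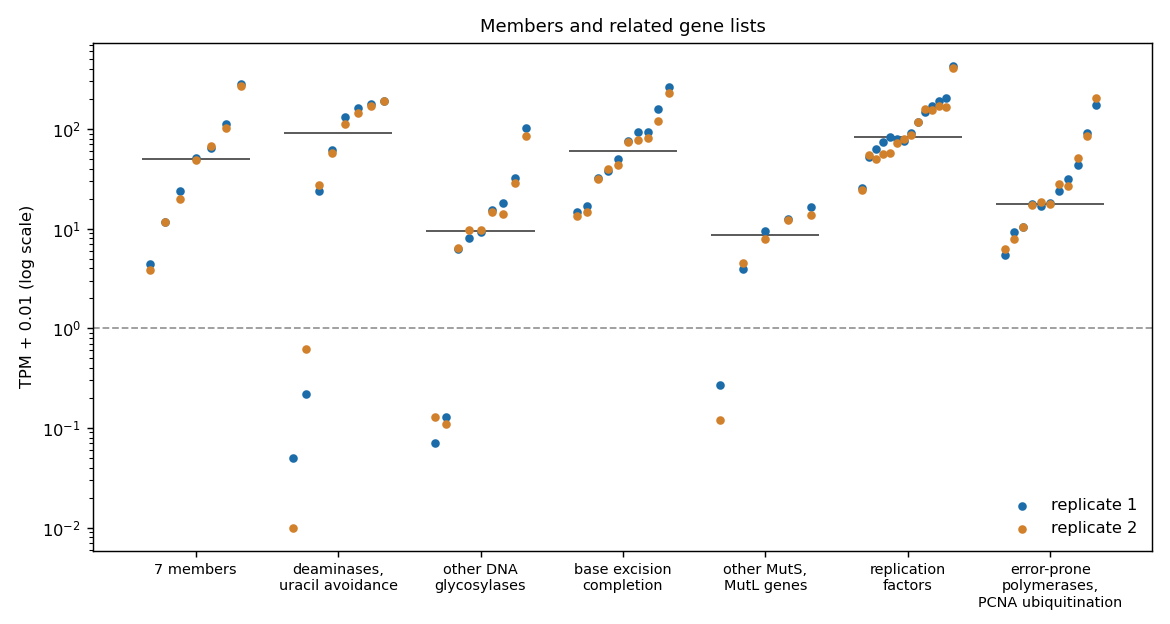
TPM + 0.01 on a log axis for the 7 members and the genes of the 6 related lists, ordered by level within each list, in replicate 1 (blue) and replicate 2 (orange). Solid lines are medians over all genes of a list, detected or not, and the dashed line is 1 TPM. Replication factors (median 83.4 TPM) lie above the other DNA glycosylases (9.45) and the other MutS and MutL genes (8.61).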

How the data were processed

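Single-end polyadenylated RNA sequencing of 2 CH12.LX libraries was used. The authors deposited a gene and a transcript table per library, on mm10 with GENCODE M4 per the deposited notes; the aligner and counter are not stated in these sources. As deposited, expected counts estimate the reads of each entry and need not be whole. The deposited TPM and FPKM are scaled by the authors to length and depth. The deposited isoform percent is a transcript's share of its gene's TPM, and posterior means with SDs are a second deposited estimate.

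Names, coordinates and sequences came from GENCODE M21 (GRCm38, the same assembly), with 42462 of 43346 Ensembl entries matched. Entries that are only a number (0.0426% and 0.0539% of counts) were left out of sizes and tests. Counts were rounded, and 15340 genes with at least 10 counts over both libraries were tested at an adjusted p of 0.05 (exact binomial test, TMM sizes of edgeR 4.0.16). Log2 ratios used a pseudocount of 0.5. This test and its intervals cover only counting error (without molecular identifiers, reads are not separate molecules). The simulated data on which it was tried also held counting error only, so that trial does not cover the spread between libraries. The negative binomial test took its dispersion from the 2 libraries themselves, treated as 1 group. Only genes whose posterior SD was at most 5% of the posterior mean count in both libraries entered that estimate. DESeq2 1.42.0 gave alternative size factors. A gene was detected at 1 TPM or more in both libraries. RPKM was computed from expected counts.

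The members and the gene lists were chosen with earlier results of these data known. Named are all members, transcripts at 5% or more of a member in a library, neighbours, markers, and of each list the 4 highest genes, those under 1 TPM in a library and those called whose log2 ratio is at least 0.5 in size. Apobec1, Parp2, Rfc4, Rad18, Rev3l, Polh, Mbd4, Pip4p1, Fbxo11 and Gm11855 are further genes named after their values were seen. Other genes of these pathways were not analysed here.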

Additional observations from a re-analysis of the deposited data

How the results depend on the processing

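The order of the members was the same by TPM, by posterior mean TPM and in each library alone. FPKM and TPM rescaled without mitochondrial genes gave that order too. Each multiplies all TPM values of a library by 1 factor, so neither could change the order within it. With 1 fixed length per gene, alternatives chosen after seeing the data, 2 of 7 members kept their place on the transcript with the longest complete coding sequence and 3 on merged exons. Of the ratios between members, Ung to Smug1 was 12 on merged exons, Apex1 to Apex2 was 22.3 by posterior means and 95.7 on merged exons, and Msh6 to Pms2 was 7.07 on merged exons and 4.78 on the transcript with the longest complete coding sequence. Msh6 to Exo1 turned from 0.475 by TPM to 3.27 on merged exons and 3.03 on the transcript with the longest complete coding sequence. Between the libraries, edgeR's negative binomial exact test called 0 of 7 members, 759 genes in all against 4672 by the exact binomial test, and 0 of the 57 list genes against 20 (a test chosen for the lists after seeing the data). Under library totals the log2 ratio of Exo1 was -0.0133 (exact binomial adjusted p = 0.889) in place of 0.01, and 1 more lower call was made among the other glycosylases and among the other MutS and MutL genes. No paired analysis was possible because both libraries belong to 1 group, and leaving out a library leaves no test between them. Depth limits Smug1 and Apex2, at 227 to 361 counts in a library, and read length limits the shares of transcripts with few distinguishing 41-mers.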
